A study of Mus musculus with 10 samples.

Results

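The core circadian clock genes were followed in primary mouse hepatocytes exposed to free fatty acids (FFAs) with or without Neurotropin (NTP). The set held Arntl, Clock, Per1, Per2, Per3, Cry1, Cry2, Nr1d1, Nr1d2 and Dbp, 10 of the 18055 genes listed in any library and chosen by name. All 10 passed the filter on low counts, which left 14097 genes for testing. The question was whether the groups differed in the state of the clock. Hepatocytes were isolated from C57BL/6 mice by collagenase perfusion, plated on collagen and kept in culture, so all groups were cells cut off from the rhythms of food, hormones and nerves in the animal. The methods describe a few hours in medium with fetal bovine serum and then serum-free medium overnight, before any treatment. The Vehicle group received neither FFA nor NTP. The PA group received 200 μM palmitate, a saturated FFA, for 24 h, and the LA group received 12 μM linoleate, a polyunsaturated FFA, for 24 h. The PA+NTP and LA+NTP groups received NTP at 0.4 NU/mL (the dose in the methods) starting 1 h before the same FFA. NTP is a pain drug without protein, prepared from the skin of rabbits inoculated with vaccinia virus. Each of the 5 groups had 2 libraries, there was no group with NTP alone, and neither the labels nor the methods give the time of day at isolation or collection or say whether the libraries of a group came from separate animals, so the p-values measure the spread between these libraries, which may be technical.

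The mammalian clock is a transcriptional feedback loop. ARNTL (BMAL1) and CLOCK form a dimer that binds E-box motifs and activates the Per and Cry genes, whose protein products then inhibit that dimer. The nuclear receptors NR1D1 and NR1D2 (REV-ERBα and REV-ERBβ) repress Arntl from a second loop, and DBP passes E-box rhythms on to genes that carry a D-box. In mouse liver Arntl peaks close to the antiphase of Nr1d1 and Dbp, cell-autonomous rhythms persist in cultured hepatocytes, and the phase of the loop responds to serum, glucocorticoids, cAMP and feeding signals.

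Expression was measured by RNA sequencing, with a total of 13142588 to 60046937 expected counts per library, and levels are given as FPKM, the fragments of a gene scaled for transcript length and library size. Genes were called changed at an edgeR quasi-likelihood adjusted p under 0.05 and a difference of at least 1.5 fold, and all log2 fold changes come from that fit. All 6 hepatocyte markers listed were present, with a summed level of 3119 to 3318 FPKM in Vehicle, 2198 to 2452 in PA, 2666 to 3000 in PA+NTP, 3167 to 3220 in LA and 3721 to 3971 in LA+NTP, and with PA 3 of the 6 were called lower. Markers of other liver cells were also detected. The summed level of 6 Kupffer cell and macrophage markers was 207.4 and 207.5 FPKM in Vehicle, 197.9 to 234.9 in PA, 263.1 to 291.5 in PA+NTP, 125.4 to 129.5 in LA and 181.2 to 195.5 in LA+NTP. The sum hides members that ran apart. Of the 5 tested, 3 were higher and 2 lower with PA, and Cd5l alone was called (lower, log2 fold change -1.11, edgeR adjusted p = 0.000475). For 5 stellate cell and fibroblast markers the sum was 13.6 to 13.63 FPKM in Vehicle, 8.14 to 9.09 in PA, 10.87 to 13.18 in PA+NTP, 10.09 to 10.5 in LA and 14.89 to 15.99 in LA+NTP, with 4 of 5 called lower with PA. Over all genes tested, 14.9% were called with PA, 1257 of them lower. Once the trend of all genes with transcript GC content was removed, 2 hepatocyte and 2 stellate cell and fibroblast markers stayed called lower with PA, beside 8.4% of all genes called. The endothelial sum (5 markers) was lowest at 27.61 and highest at 40.21 FPKM, the cholangiocyte sum (4 markers) at 7.68 and 14.64, and the lymphocyte sum (5 markers) at 0.4 and 0.79, and no marker was at 0 in all libraries. The part of these cells in the clock results was not tested, and in RNA from bulk cells fewer cells of a type and less RNA per cell cannot be told apart.

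The promoter windows of the genes that the results turn on are shown with the clock motifs they hold, taken from RefSeq on GRCm38.p6 and running from 250 bases before the start site to 50 after it. 9 of the 10 genes had an entry (13 windows), and Per2 had none. Capitals mark a motif on either strand: the E-box CACGTG bound by the ARNTL dimer, its variant CACGTT, which reads AACGTG on the other strand, the D-box (TTACATAA, TTACGTAA, TTATATAA or TTATGTAA), and the CRE core TGACGT, which binds cAMP-response factors. The E-box and its variant differ in a base and cannot take the same position. Of all 32851 windows of 300 bases in the table, 7.15% held the E-box, 4.68% the variant, 1.59% a D-box, 0.773% the RORE bound by NR1D and ROR receptors, and 7.51% the CRE core. Per1 lies on chromosome 11 with 2 start sites, at chr11:69098699-69098998 (plus strand) with an E-box at -166 and at chr11:69099902-69100201 (plus strand) with a CRE core at -132. Nr1d1 (chr11:98775328-98775627, minus strand) held the variant at -28, and Nr1d2 (chr14:18239057-18239356, minus strand) held none of the motifs searched. Cry1 (chr10:85185005-85185304, minus strand) held an E-box at -60 and the variant at -79, and Per3 (chr4:151044616-151044915, minus strand) held 2 D-boxes. Of the windows not shown, 1 of 2 of Arntl held a RORE at 28, that of Cry2 held the variant at -166, and those of Clock and Dbp held none. A match is a description of these letters and not evidence of binding.
Per1 start 1: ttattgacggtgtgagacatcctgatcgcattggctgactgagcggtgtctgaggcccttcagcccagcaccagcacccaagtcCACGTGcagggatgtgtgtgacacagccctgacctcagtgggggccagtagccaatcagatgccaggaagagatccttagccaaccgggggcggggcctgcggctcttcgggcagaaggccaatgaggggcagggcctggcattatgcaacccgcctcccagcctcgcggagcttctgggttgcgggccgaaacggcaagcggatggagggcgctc
Per1 start 2: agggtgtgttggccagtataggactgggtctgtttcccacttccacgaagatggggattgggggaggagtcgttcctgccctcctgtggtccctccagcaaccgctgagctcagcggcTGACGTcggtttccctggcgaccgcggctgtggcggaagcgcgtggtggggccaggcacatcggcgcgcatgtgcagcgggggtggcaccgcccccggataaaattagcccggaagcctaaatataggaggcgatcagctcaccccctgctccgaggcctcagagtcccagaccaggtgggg
Per3: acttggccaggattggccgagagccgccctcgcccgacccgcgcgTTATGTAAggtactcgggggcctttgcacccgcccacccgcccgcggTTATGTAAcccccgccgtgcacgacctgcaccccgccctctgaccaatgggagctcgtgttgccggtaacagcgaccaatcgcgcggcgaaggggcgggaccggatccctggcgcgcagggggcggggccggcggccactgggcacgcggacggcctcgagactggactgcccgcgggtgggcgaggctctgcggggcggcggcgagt
Cry1: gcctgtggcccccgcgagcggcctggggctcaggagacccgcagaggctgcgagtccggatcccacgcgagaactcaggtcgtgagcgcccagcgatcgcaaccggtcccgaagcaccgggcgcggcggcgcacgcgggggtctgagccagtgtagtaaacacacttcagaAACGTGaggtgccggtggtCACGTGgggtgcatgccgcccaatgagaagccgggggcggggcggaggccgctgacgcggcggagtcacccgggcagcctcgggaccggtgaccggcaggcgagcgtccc
Nr1d1: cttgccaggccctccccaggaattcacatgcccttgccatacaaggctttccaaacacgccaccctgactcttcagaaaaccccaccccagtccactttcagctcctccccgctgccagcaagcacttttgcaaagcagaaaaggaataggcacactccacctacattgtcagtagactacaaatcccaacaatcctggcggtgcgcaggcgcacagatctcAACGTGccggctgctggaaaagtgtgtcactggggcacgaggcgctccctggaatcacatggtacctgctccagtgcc
Nr1d2: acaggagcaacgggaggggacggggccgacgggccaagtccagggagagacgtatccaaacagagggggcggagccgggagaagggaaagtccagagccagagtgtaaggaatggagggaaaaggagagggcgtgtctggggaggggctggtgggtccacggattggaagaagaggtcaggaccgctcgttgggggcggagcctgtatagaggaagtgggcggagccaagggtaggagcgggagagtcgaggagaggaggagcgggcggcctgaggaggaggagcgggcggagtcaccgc

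The clock genes did not move as a block. Per1 and Nr1d1 fell with each FFA and rose when NTP preceded the FFA, while Nr1d2, the paralog of Nr1d1, was higher with each FFA and fell with NTP. Per2 and Dbp were called lower with PA, calls that were lost once the trend of all genes with transcript GC content was removed, and Arntl was not called in any comparison. That removal also ended the calls of Nr1d1 with LA and with NTP, every call of Nr1d2, and the call of Per1 with NTP under PA. Any difference among the 5 groups was called for 9 of the 10 genes (edgeR F test, adjusted p under 0.05), all but Arntl at an adjusted p of 0.174, beside 61.9% of all genes tested. In FPKM, the 4 libraries with an FFA alone did not overlap the other 6 for Per1, Nr1d1, Cry2, Nr1d2 and Clock, 5 of 10 genes beside 38.5% of all genes tested. The ranges of Arntl, Per2, Per3, Cry1 and Dbp overlapped.

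**Figure D1:**
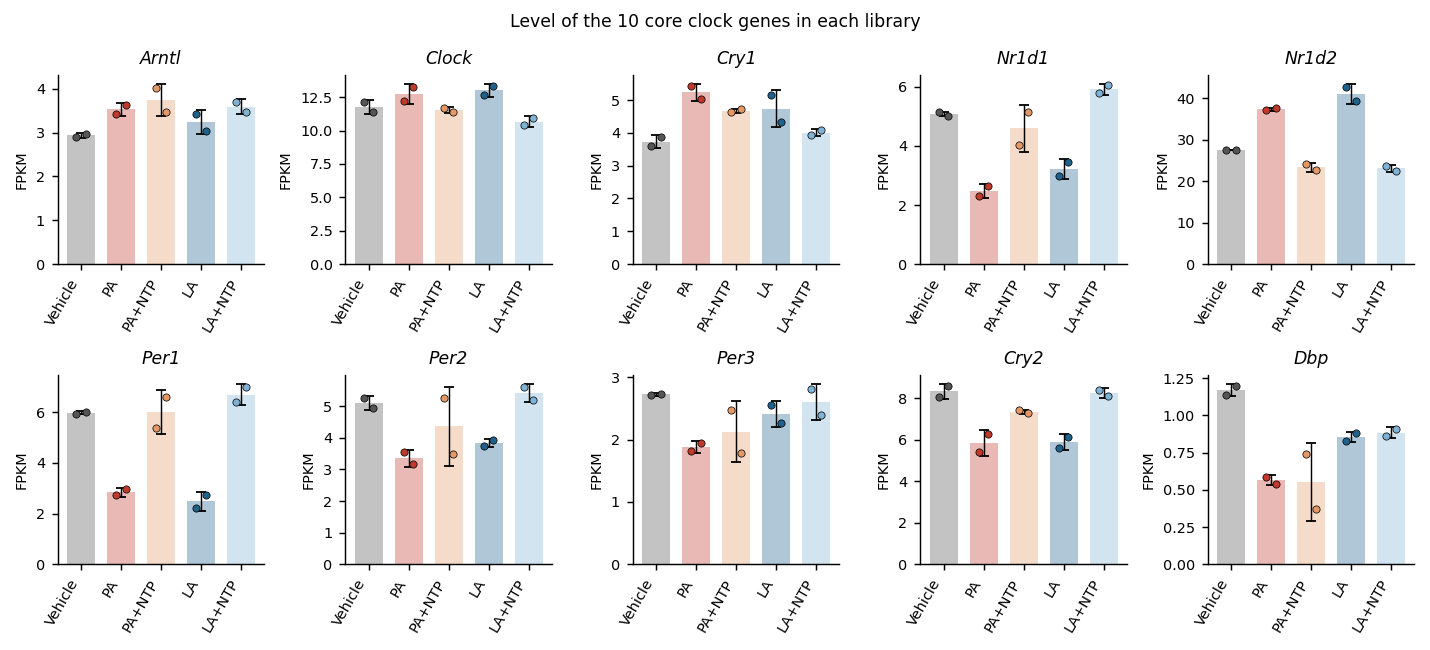
FPKM (vertical axis, from 0) of each clock gene in the 5 groups, with each of the 2 libraries as a point, the group mean as a bar and the SD as a line. Per1 and Nr1d1 are lowest in PA and LA, Nr1d2 is highest there at 37.1 to 42.84 FPKM, and the PA+NTP libraries lie apart for Per2, Per3 and Dbp.

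Per1, an inhibitor of the ARNTL dimer that also responds acutely to cAMP and glucocorticoids, showed the largest called change of the 10 genes with LA and in both NTP comparisons. Its level was 5.95 and 6.03 FPKM in Vehicle, 2.72 and 2.97 in PA, 2.23 and 2.74 in LA, 5.40 and 6.62 in PA+NTP, and 6.40 and 7.0 in LA+NTP. Every library with an FFA alone lay below every other library. Per1 was downregulated by PA with a log2 fold change of -1.03 ± 0.12 (SE, n = 2 per group, edgeR adjusted p = 1.61e-05) and by LA with -1.23 ± 0.12 (adjusted p = 5.83e-06). NTP raised Per1 by 1.01 ± 0.12 on the log2 scale under PA (adjusted p = 1.54e-05) and by 1.40 ± 0.12 under LA (adjusted p = 5.44e-07). In order of mean level, LA (2.49 FPKM) and PA (2.85) did not differ beyond their spread (adjusted p = 0.366), nor did Vehicle (5.99) and PA+NTP (6.01, adjusted p = 0.952), and the ranges of PA+NTP and LA+NTP overlapped.

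Per2, also an inhibitor of the dimer, measured 5.25 and 4.93 FPKM in Vehicle, 3.54 and 3.16 in PA, 3.74 and 3.92 in LA, 5.25 and 3.48 in PA+NTP, and 5.62 and 5.21 in LA+NTP. The groups with an FFA alone lay below Vehicle, and 1 PA+NTP library lay at the level of PA and the other at that of Vehicle. Per2 was called lower with PA at the edge of the threshold (log2 fold change -0.59 ± 0.14, a fold of 1.5, edgeR adjusted p = 0.00403), and the call was lost in 13 alternative settings and kept in 11. Among the 13 were the omission of Vehicle replicate 1 or PA replicate 2, DESeq2, and removal of the GC trend (-0.39, adjusted p = 0.0511). With LA the log2 fold change was -0.36 ± 0.14 (adjusted p = 0.0488), under the fold threshold, and it was 0.34 ± 0.14 in PA+NTP against PA (adjusted p = 0.0676) and 0.46 ± 0.13 in LA+NTP against LA (adjusted p = 0.0102).

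Per3, the family member least needed for the rhythm, measured 2.71 and 2.74 FPKM in Vehicle, 1.81 and 1.95 in PA, 2.56 and 2.26 in LA, 2.47 and 1.78 in PA+NTP, and 2.81 and 2.40 in LA+NTP. It was lowest in PA and in PA+NTP replicate 2, and no other library lay below 2.26 FPKM. No comparison called it: the log2 fold change was -0.50 ± 0.14 for PA (adjusted p = 0.0113, under 1.5 fold) and -0.13 ± 0.14 for LA (95% interval -0.42 to 0.17). With NTP it was 0.11 ± 0.14 under PA (95% interval -0.20 to 0.41) and 0.06 ± 0.13 under LA (95% interval -0.22 to 0.35).

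Nr1d1 and Nr1d2 encode heme-binding repressors of Arntl that usually oscillate together in liver. Nr1d1 measured 5.14 and 5.03 FPKM in Vehicle, 2.31 and 2.64 in PA, 2.98 and 3.45 in LA, 4.03 and 5.16 in PA+NTP, and 5.79 and 6.06 in LA+NTP. Nr1d2 measured 27.61 and 27.63 FPKM in Vehicle, 37.10 and 37.63 in PA, 42.84 and 39.38 in LA, 24.12 and 22.59 in PA+NTP, and 23.76 and 22.54 in LA+NTP. Nr1d1 was lowest and Nr1d2 highest in the 4 libraries with an FFA alone. Within that split the paralogs ran the same way in group mean in some pairs, both lower in PA than in LA and lower in PA+NTP than in Vehicle. They ran apart in LA+NTP against Vehicle, where Nr1d1 was higher (5.925 against 5.085 FPKM) and Nr1d2 lower (23.15 against 27.62). Between the NTP groups Nr1d1 was lower in PA+NTP (4.595 against 5.925 in LA+NTP), while Nr1d2 lay close together (23.36 and 23.15).

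Nr1d1 fell by 0.98 ± 0.15 on the log2 scale with PA (edgeR adjusted p = 0.000104) and by 0.62 ± 0.14 with LA (adjusted p = 0.00283), and PA and LA did not differ in it at the threshold (log2 fold change -0.36 ± 0.15, adjusted p = 0.148). It rose by 0.82 ± 0.15 with NTP under PA (adjusted p = 0.000397) and by 0.85 ± 0.13 under LA (adjusted p = 0.000113). Nr1d2 rose by 0.62 ± 0.06 with LA (adjusted p = 5.35e-06). With PA its log2 fold change was 0.47 ± 0.06 (adjusted p = 3.17e-05), short of 1.5 fold. Nr1d2 fell by 0.74 ± 0.06 with NTP under PA (adjusted p = 1e-06) and by 0.87 ± 0.06 under LA (adjusted p = 1.40e-07). Both LA calls stood at 1.54 fold, near the threshold. That of Nr1d1 was lost in 5 alternative settings and kept in 19, and that of Nr1d2 was lost in 7 and kept in 17. Among the settings that lost them was the omission of LA replicate 1. Without it the log2 fold change was -0.51 for Nr1d1 and 0.56 for Nr1d2, both under the fold threshold.

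Nr1d1 shares 263 of its 3077 exon bases with Thra on the opposite strand, and since the strand used in counting is not stated, reads there cannot be told apart. Thra, the thyroid hormone receptor alpha, measured 5.46 and 4.18 FPKM in Vehicle, 3.04 and 2.64 in PA, 2.94 and 2.38 in LA, 5.0 and 3.65 in PA+NTP, and 5.29 and 4.67 in LA+NTP. Its levels were therefore also lowest in the libraries with an FFA alone, and the part of shared reads in the Nr1d1 result was not tested.

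The positive arm changed little. Arntl measured 2.90 and 2.97 FPKM in Vehicle, 3.43 and 3.63 in PA, 3.43 and 3.04 in LA, 4.01 and 3.48 in PA+NTP, and 3.71 and 3.48 in LA+NTP. Both Vehicle libraries lay below all 8 treated libraries, by a small margin to LA replicate 2. Its log2 fold change was 0.29 ± 0.13 for PA (95% interval 0.015 to 0.57, edgeR adjusted p = 0.0801) and 0.17 ± 0.13 for LA (95% interval -0.10 to 0.44), and with NTP it was 0.02 (95% interval -0.24 to 0.29) under PA and 0.12 (95% interval -0.13 to 0.38) under LA. Against Vehicle, Arntl stood at 0.31 in PA+NTP (95% interval 0.045 to 0.58, adjusted p = 0.134). In LA+NTP it stood at 0.29 against Vehicle (95% interval 0.028 to 0.56, adjusted p = 0.294).

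Clock, the partner of ARNTL, measured 12.12 and 11.41 FPKM in Vehicle, 12.24 and 13.26 in PA, 12.66 and 13.38 in LA, 11.69 and 11.37 in PA+NTP, and 10.41 and 10.95 in LA+NTP. The groups lay close together, with 13.38 FPKM as the highest library and 10.41 as the lowest. The log2 fold change of Clock reached at most 0.19 ± 0.06 with an FFA (LA, adjusted p = 0.0281) and -0.32 ± 0.06 with NTP (LA, adjusted p = 0.000656), all under the fold threshold.

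The cryptochromes, which repress the ARNTL dimer together with PER proteins, moved apart. Cry1 measured 3.6 and 3.87 FPKM in Vehicle, 5.43 and 5.05 in PA, 5.15 and 4.34 in LA, 4.63 and 4.72 in PA+NTP, and 3.94 and 4.08 in LA+NTP. Cry2 measured 8.06 and 8.58 FPKM in Vehicle, 5.41 and 6.29 in PA, 5.60 and 6.15 in LA, 7.41 and 7.27 in PA+NTP, and 8.41 and 8.09 in LA+NTP. Cry1 was highest and Cry2 lowest with an FFA alone, though 1 LA library of Cry1 lay below both PA+NTP libraries. The log2 fold change with PA was 0.51 ± 0.11 for Cry1 (adjusted p = 0.00222) and -0.40 ± 0.09 for Cry2 (adjusted p = 0.00179), and with LA it was 0.39 ± 0.11 (adjusted p = 0.0121) and -0.39 ± 0.09 (adjusted p = 0.00232), none of them 1.5 fold. With NTP, Cry1 stood at -0.21 ± 0.11 under PA (edgeR adjusted p = 0.132) and -0.29 ± 0.11 under LA (adjusted p = 0.0354). Cry2 stood at 0.14 ± 0.09 under PA (adjusted p = 0.226) and 0.39 ± 0.08 under LA (adjusted p = 0.00123), again under 1.5 fold. Cry2 shares 295 of its 6320 exon bases with D930015M05Rik on the opposite strand. That gene measured 0.76 to 1.87 FPKM, and the part of shared reads in the Cry2 values was not tested.

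Dbp, a D-box activator and among the strongest oscillating transcripts of liver, was barely expressed, with 13 to 91 counts per library. It measured 1.14 and 1.2 FPKM in Vehicle, 0.59 and 0.54 in PA, 0.83 and 0.88 in LA, 0.74 and 0.37 in PA+NTP, and 0.86 and 0.91 in LA+NTP. Vehicle was the highest group, and the levels with NTP did not lie above those with the FFA alone beyond the spread. Dbp was called lower with PA (log2 fold change -1.05 ± 0.35, edgeR adjusted p = 0.0238), a call lost in 8 alternative settings and kept in 15. Among the 8 were the omission of either Vehicle or either PA library and removal of the GC trend (-0.55, adjusted p = 0.246). The log2 fold change was -0.41 ± 0.32 with LA (95% interval -1.10 to 0.28), -0.06 in PA+NTP against PA (95% interval -0.84 to 0.72) and 0.01 in LA+NTP against LA (95% interval -0.66 to 0.67). Dbp shares 539 of 2993 exon bases with Sphk2 on the opposite strand. Sphk2, a sphingosine kinase, had 260 to 2769 counts per library and measured 5.05 to 6.51 FPKM with an FFA alone and 9.99 to 12.67 in the other 6 libraries, and the part of its reads in the Dbp values was not tested.

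**Figure D2:**
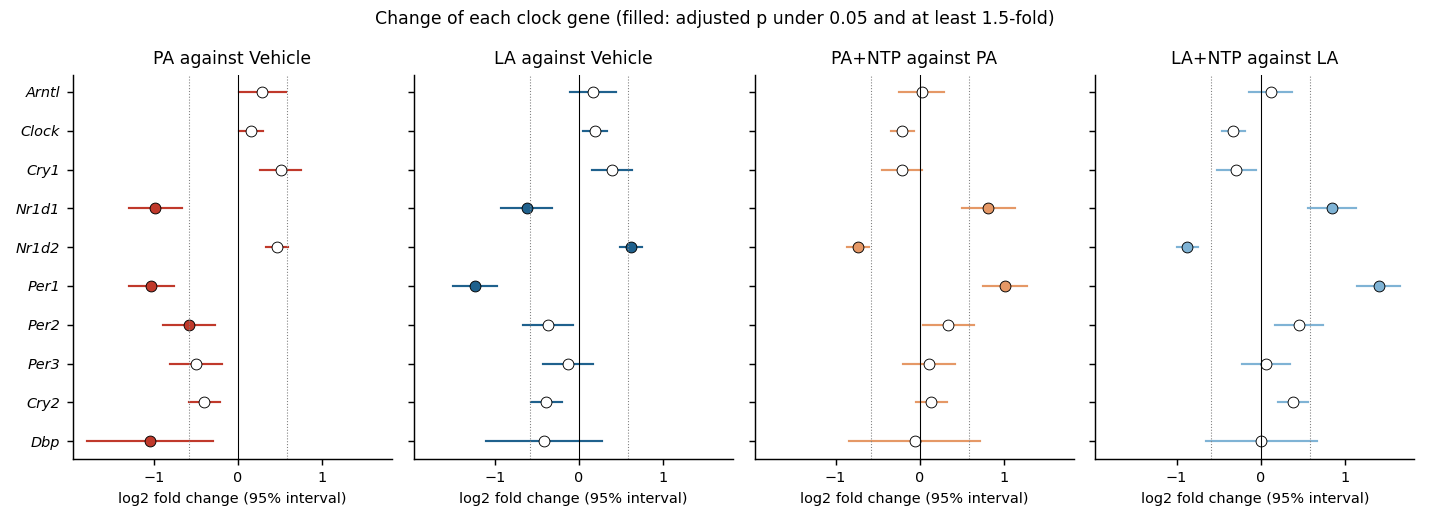
Log2 fold change (horizontal axis) of each clock gene in the 4 comparisons, with points for the edgeR estimate, lines for the 95% interval, filled points for called genes and dotted lines at 1.5 fold. Per1 and Nr1d1 lie left of 0 with each FFA and right of 0 with NTP, Nr1d2 lies on the opposite side, and the interval of Arntl covers 0 in the LA and in both NTP panels.

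By comparison, PA called 4 of the 10 genes, all lower (Per1, Nr1d1, Dbp and Per2), beside 14.9% of all genes tested. LA called 3, Per1 and Nr1d1 lower and Nr1d2 higher, beside 10.6%. NTP called Per1 and Nr1d1 higher and Nr1d2 lower both under PA, beside 13.9%, and under LA, beside 19.3%. By adjusted p alone, without the fold threshold, 8 genes passed with PA, 7 with LA, 4 with NTP under PA and 7 with NTP under LA, beside 45.5%, 41.3%, 44.7% and 51.5% of all genes tested. These comparisons share libraries, since the same PA and LA libraries stand in an FFA comparison and in an NTP comparison with the opposite sign.

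The NTP groups were also compared with Vehicle. In LA+NTP against Vehicle no clock gene was called by edgeR (2 genes, Arntl and Nr1d2, had an unadjusted p under 0.05, as did 2014 of the 14097 genes tested, and DESeq2 called 0 clock genes), beside 0.0922% of all genes tested. In PA+NTP against Vehicle 1 gene was called, beside 2.85%: Dbp, with a log2 fold change of -1.10 ± 0.33 and an adjusted p of 0.04999. That call was lost in several alternative settings, DESeq2 among them, and with 9 of the 10 libraries left out singly, all but PA+NTP replicate 1, whose omission also called Per3. At an unadjusted p under 0.05 there were 6 of the 10 clock genes (Arntl, Per3, Cry1, Cry2, Nr1d2 and Dbp) beside 3476 of 14097 genes. By adjusted p alone Nr1d2 passed too (log2 fold change -0.27 ± 0.06, adjusted p = 0.0124), beside 10.1%. Per1 differed from Vehicle by -0.02 ± 0.11 on the log2 scale in PA+NTP and by 0.17 ± 0.11 in LA+NTP, and Nr1d1 by -0.17 ± 0.14 and 0.23 ± 0.13.

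PA and LA were compared directly, and edgeR called no clock gene, beside 3.23% of all genes tested. At an unadjusted p under 0.05 there were 3 (Per3, Nr1d1 and Nr1d2), all lower in PA, beside 3492 of 14097 genes, and DESeq2 called 0. Dbp had the largest difference, lower in PA by 0.64 ± 0.35 on the log2 scale. The NTP effect under PA minus that under LA called 0 clock genes and 0 of all genes tested by edgeR (1029 genes had an unadjusted p under 0.05, and DESeq2 called 5, no clock gene among them). Per1 alone of the clock genes had an unadjusted p under 0.05 (log2 difference -0.39 ± 0.17, adjusted p = 0.679).

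The changes of the clock genes tended to run with their GC content, with exceptions. Cry1 had the opposite sign to the trend of all genes at its GC content with PA (0.51 against -0.08) and LA (0.39 against -0.07). The same held for Cry1 with NTP under PA (-0.21 against 0.08) and under LA (-0.29 against 0.10). Arntl also had the opposite sign to its trend with NTP under PA (0.02 against -0.09) and under LA (0.12 against -0.13). Dbp lay below its trend in both NTP comparisons. The transcripts ranged from 41.8% GC for Nr1d2, 42.1% for Clock and 47.9% for Arntl, over 51.6% for Cry1, 52.4% for Per3, 54.3% for Per2, 55.6% for Cry2 and 56.8% for Nr1d1, to 59.4% for Per1 and 61.6% for Dbp. Across the 10 genes, Spearman's rho between GC content and log2 fold change was -0.879 for PA, -0.927 for LA, 0.685 for NTP under PA and 0.685 for NTP under LA. Over the 13925 tested genes with a GC value it was -0.522, -0.641, 0.577 and 0.68. These are descriptions across genes that share the same libraries.

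At the GC content of Nr1d2, the trend over all genes was 0.34 on the log2 scale for PA and 0.37 for LA, against the measured 0.47 and 0.62 of that gene. At that of Per1 the trend was -0.42 and -0.45, against -1.03 and -1.23. Dbp, the gene of highest GC content, stood at -0.06 with NTP under PA and 0.01 under LA, where the trend was 0.54 and 0.71. Removing the trend from every library left Per1 called with PA (-0.62 ± 0.13, edgeR adjusted p = 0.00258), with LA (-0.78 ± 0.13, adjusted p = 0.00128) and with NTP under LA (0.82 ± 0.12, adjusted p = 0.000362). With NTP under PA it was 0.57 ± 0.13 (adjusted p = 0.00445), short of 1.5 fold.

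Nr1d1 stayed called in the PA comparison alone (-0.68 ± 0.15, adjusted p = 0.00359), and its log2 fold change with LA became -0.28 ± 0.14 (adjusted p = 0.198). For Nr1d2 the log2 fold change became 0.13 ± 0.06 with PA (adjusted p = 0.128), 0.26 ± 0.06 with LA (adjusted p = 0.00902), -0.38 ± 0.06 with NTP under PA (adjusted p = 0.00048) and -0.42 ± 0.06 with NTP under LA (adjusted p = 0.000194). The signs of the paralogs thus stayed opposite, and Nr1d2 was no longer called. Cry1 moved the other way from its trend and stood at 0.58 ± 0.11 with PA (adjusted p = 0.00162), just short of 1.5 fold. Cry2 shrank to -0.15 ± 0.08 with PA (edgeR adjusted p = 0.19) and -0.11 ± 0.08 with LA (adjusted p = 0.391).

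With the trend removed, the called clock genes numbered 2 with PA (beside 8.4% of all genes), 1 with LA (3.07%), 0 with NTP under PA (5.93%) and 1 with NTP under LA (5.52%). A difference among the groups was called for Per1, Cry1, Nr1d1, Nr1d2 and Dbp, 5 genes beside 45.2%. Clock took the opposite sign in all 4 comparisons under this setting, with no call. Whether the GC trend arose in the cells or in the libraries was not tested.

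**Figure D3:**
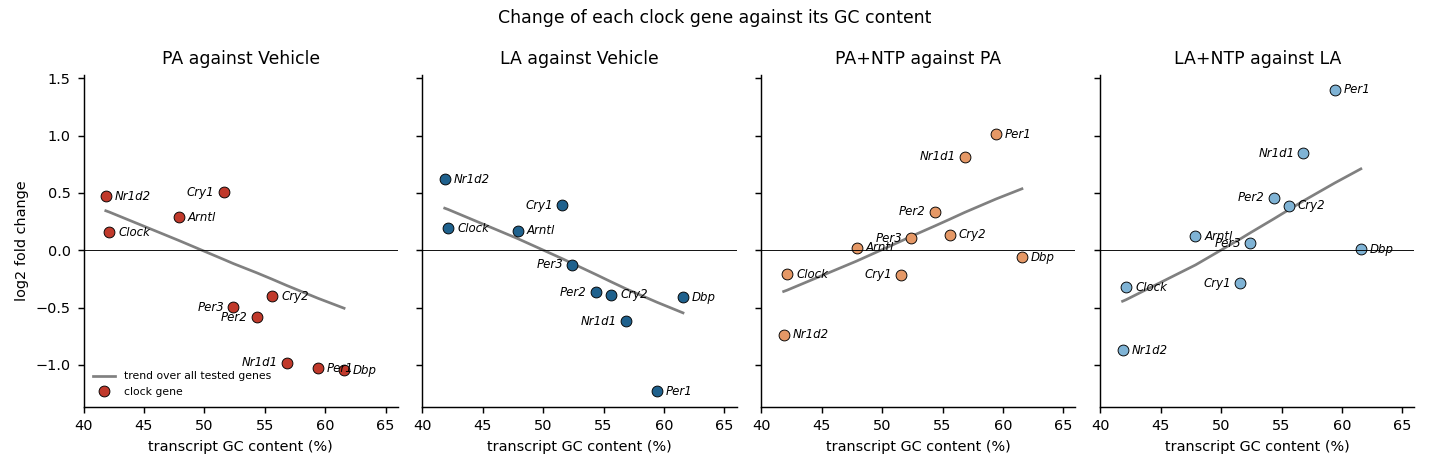
Log2 fold change (vertical axis) of each clock gene against the GC content of its transcript in percent (horizontal axis) in the 4 comparisons, with the grey line joining the trend of all tested genes at the GC values of the clock genes. Nr1d2 at 41.8% and Per1 at 59.4% lie farther from 0 than the line in all 4 panels, and Dbp at 61.6% lies near 0 in both NTP panels, where the line stands at 0.54 and 0.71.

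Clock state was described by genes known to peak with Arntl in liver (Arntl, Clock, Npas2, Nfil3 and Cry1) and genes known to peak at the opposite time (Nr1d1, Nr1d2, Dbp, Tef, Hlf, Per1, Per2, Per3, Cry2, Bhlhe41, Ciart and Usp2). With PA, 0 of the 5 genes of the Arntl phase and 4 of the 12 of the opposite phase were called, the latter all lower, with median log2 fold changes of 0.16 and -0.43, beside -0.01 over all genes, of which 14.9% were called. With LA, 1 of 5 was called lower (Npas2), and of the 12 there were 2 lower (Per1, Nr1d1) and 1 higher (Nr1d2), with medians of 0.17 and -0.16, beside 10.6% of all genes called. With NTP none of the 5 was called by edgeR or DESeq2 under either FFA, and of the 12 there were 2 higher and 1 lower under each, with medians of 0.15 under PA and 0.11 under LA, beside 13.9% and 19.3% of all genes called. After removal of the GC trend the medians of the 12 became -0.26 with PA, -0.01 with LA, and -0.02 and -0.03 with NTP under PA and LA, so those of the NTP comparisons changed sign. The genes of the 12 then called by edgeR were Per1 and Nr1d1 (both lower) with PA, Per1 (lower) with LA and Per1 (higher) with NTP under LA, and the medians of the 5 were 0.11, 0.07, 0.12 and 0.11. Before removal, at an unadjusted p under 0.05 the genes of the Arntl phase numbered 4 of 5 with PA, 3 with LA, 1 with NTP under PA and 2 with NTP under LA. Over all 14097 genes tested the numbers were 7326, 6872, 7211 and 8001 in the same order. Each group was collected after a single stated exposure, with no time series, so no phase in hours was computed.

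The ratio of Arntl to Nr1d1, taken within a library from CPM (counts scaled to the size of the library) on the log2 scale, was -0.67 and -0.60 in Vehicle, 0.71 and 0.60 in PA, 0.34 and -0.05 in LA, 0.15 and -0.44 in PA+NTP, and -0.49 and -0.65 in LA+NTP. It was highest in PA, and LA+NTP overlapped Vehicle. Arntl to Dbp was 2.13 and 2.10 in Vehicle, 3.29 and 3.52 in PA, 2.81 and 2.55 in LA, 3.22 and 3.94 in PA+NTP, and 2.89 and 2.72 in LA+NTP. This ratio was above Vehicle in all 8 treated libraries and was not lower with NTP than with the FFA alone in either group mean (3.58 against 3.40 under PA, 2.81 against 2.68 under LA). The pair of ratios therefore gave different orders of the groups.

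The ratio of Nr1d2 to Nr1d1, chosen after the values were seen, was 3.25 and 3.28 in Vehicle, 4.83 and 4.66 in PA, 4.67 and 4.33 in LA, 3.41 and 2.96 in PA+NTP, and 2.86 and 2.72 in LA+NTP, so the 4 libraries with an FFA alone stood above the other 6. Its group means with the GC trend removed were 3.49 in Vehicle, 4.32 in PA, 4.03 in LA, 3.45 in PA+NTP and 3.2 in LA+NTP, against 3.27, 4.74, 4.5, 3.18 and 2.79 without. Arntl to Nr1d2, likewise chosen after the values were seen, had group means of -3.90 in Vehicle, -4.09 in PA, -4.36 in LA, -3.33 in PA+NTP and -3.36 in LA+NTP, lower with an FFA than in Vehicle where Arntl to Nr1d1 was higher. After that removal, Arntl to Nr1d2 was -3.99, -3.92, -4.19, -3.43 and -3.51 in the same order, so PA no longer lay below Vehicle. With the GC trend removed, the mean of Arntl to Nr1d1 in PA exceeded Vehicle by 0.89 in place of 1.29, and in LA by 0.34 in place of 0.78. Arntl to Dbp then exceeded Vehicle by 0.69 in PA in place of 1.29, and in LA the difference was -0.09 in place of 0.56.

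**Figure D4:**
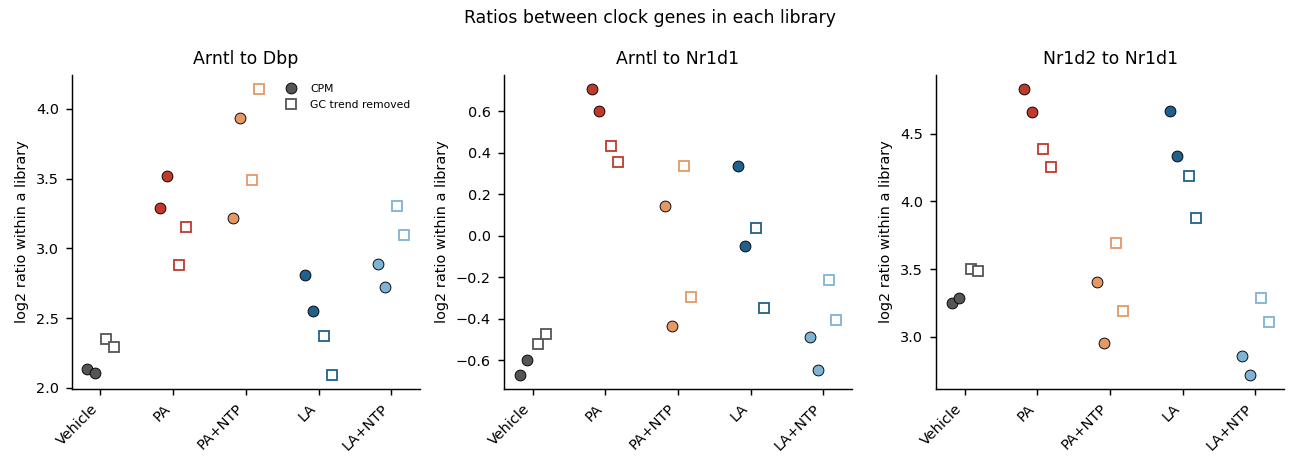
Log2 ratio within each library (vertical axis) of Arntl to Dbp, Arntl to Nr1d1 and Nr1d2 to Nr1d1 in the 5 groups, with circles from CPM and squares after removal of the GC trend. Nr1d2 to Nr1d1 separates the libraries with an FFA alone, at 4.33 to 4.83 in circles, from the others, while Arntl to Dbp is highest in PA+NTP replicate 2.

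Of 20 other clock genes, 19 were tested and Rorb, a nuclear receptor of the ROR family, was not. With PA and with NTP under PA and LA, edgeR called none, beside 14.9%, 13.9% and 19.3% of all genes tested, and DESeq2 called 0. There 6, 4 and 6 had an unadjusted p under 0.05, beside 7326, 7211 and 8001 of all 14097 genes. With LA 1 was called, beside 10.6%. This was Npas2, a stand-in for CLOCK, at 0.57 and 0.47 FPKM in Vehicle, 0.41 and 0.25 in PA, 0.26 and 0.27 in LA, 0.47 and 0.45 in PA+NTP, and 0.41 and 0.32 in LA+NTP. Its log2 fold change with LA was -0.90 ± 0.31 (edgeR adjusted p = 0.0323) on 27 to 53 counts per library, and DESeq2 did not call it. Rora, an activator that competes with the NR1D receptors at the RORE, measured 9.99 and 9.41 FPKM in Vehicle, 6.91 and 6.89 in PA, 7.72 and 7.90 in LA, 9.18 and 9.26 in PA+NTP, and 9.43 and 9.87 in LA+NTP. Its groups with an FFA alone lay below the others, with log2 fold changes of -0.46 ± 0.10 for PA (adjusted p = 0.0018) and -0.26 ± 0.10 for LA (adjusted p = 0.0399), under the fold threshold.

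With the GC trend removed, Rora was called in all 4 comparisons, at -0.83 with PA, -0.66 with LA, 0.75 with NTP under PA and 0.76 with NTP under LA. Nfil3, the D-box repressor, measured 21.76 to 25.19 FPKM, with no log2 fold change beyond -0.15 in the 4 comparisons. Tef and Hlf, relatives of Dbp, measured 13.42 to 18.99 and 0.94 to 1.5 FPKM. The log2 fold change with PA was -0.39 ± 0.08 for Tef (adjusted p = 0.0015) and -0.05 ± 0.19 for Hlf.

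Among 15 genes known as clock outputs in liver, 13 were tested. With PA 1 was called higher (beside 14.9% of all genes called), with LA 1 higher and 1 lower (10.6%), with NTP 1 higher under PA (13.9%), and 2 higher and 1 lower under LA (19.3%). Nampt, the rate-limiting enzyme of NAD salvage and an E-box target, rose with PA (18.14 and 18.62 FPKM in Vehicle against 32.40 and 30.48, log2 fold change 0.80 ± 0.06, edgeR adjusted p = 4.71e-07) and fell with NTP under LA (16.54 and 16.05 FPKM against 25.04 and 26.23, log2 fold change -0.69 ± 0.06). Tspo, a cholesterol-binding protein of the outer mitochondrial membrane, fell with LA (log2 fold change -0.73 ± 0.07, adjusted p = 5.55e-06) and rose with NTP (0.66 ± 0.07 under PA, 0.99 ± 0.07 under LA). Por, the electron donor of cytochromes P450, rose with NTP under LA by 0.67 ± 0.06 on the log2 scale. In their other FFA and NTP comparisons, Nampt, Tspo and Por changed short of 1.5 fold and were not called. On the log2 scale Nampt stood at 0.52 with LA (adjusted p = 1.84e-05) and -0.46 with NTP under PA (adjusted p = 3.34e-05). Tspo stood at -0.54 with PA (adjusted p = 4e-05). Por stood at -0.30 with PA (adjusted p = 0.000601) and -0.56 with LA (adjusted p = 6.07e-06). With NTP under PA, Por stood at 0.46 (adjusted p = 1.82e-05). Upp2, a uridine phosphorylase, was called higher with LA (log2 fold change 2.26 ± 0.68, adjusted p = 0.0154) on 1 and 7 counts in Vehicle against 23 and 22. With the GC trend removed none of Nampt, Tspo, Por and Upp2 was called. The output then called was Noct, a deadenylase known as nocturnin and named after its values were seen, in the PA comparison (log2 fold change 0.66, edgeR adjusted p = 3.07e-05, against 0.49 and no call without the removal).

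Genes that respond to glucocorticoids or cAMP, signals able to reset the clock, included 12 that were all tested. With PA 5 were called lower (Fos, Egr1, Nr4a1, Zbtb16 and Dusp1, beside 14.9% of all genes called) and with LA 2 (Egr1 and Nr4a1, beside 10.6%). With NTP 1 was called higher under PA (Nr4a1, beside 13.9%) and 3 under LA (Nr4a1, Egr1 and Dusp1, beside 19.3%). Egr1 and Dusp1 also rose with NTP under PA, short of 1.5 fold. Their log2 fold changes there were 0.57 (edgeR adjusted p = 1.68e-05) and 0.58 (adjusted p = 0.00389). Not all of the 12 fell with an FFA, since 4 were higher and 8 lower with each FFA. Crem and Sgk1, named after their values were seen, were higher but under 1.5 fold. The log2 fold change of Crem was 0.33 with PA (edgeR adjusted p = 0.0468) and 0.50 with LA (adjusted p = 0.00507), and that of Sgk1 was 0.50 with LA (adjusted p = 0.0121). Fkbp5, Tsc22d3, Klf9 and Tat were called with neither FFA. Fos, an immediate early gene, measured 4.11 and 3.08 FPKM in Vehicle, 1.41 and 1.44 in PA, 3.23 and 2.86 in LA, 1.85 and 1.78 in PA+NTP, and 5.03 and 3.56 in LA+NTP. It fell with PA by 1.29 ± 0.21 on the log2 scale (adjusted p = 0.000237), and its log2 fold change was -0.18 ± 0.19 with LA. Nr4a1, a cAMP-induced orphan receptor, measured 2.86 and 2.21 FPKM in Vehicle, 1.35 and 1.25 in PA, 1.69 and 1.36 in LA, 2.57 and 3.15 in PA+NTP, and 2.91 and 3.51 in LA+NTP, and rose with NTP by 1.10 ± 0.20 under PA and 1.03 ± 0.19 under LA. Egr1, also an immediate early gene, fell with PA by 1.02 ± 0.07 and with LA by 0.62 ± 0.07 and rose by 0.69 ± 0.07 with NTP under LA. Per1 and Nr4a1 were both lowest in the libraries with an FFA alone and both called higher with NTP under each FFA. In FPKM, 38.5% of all genes tested had no overlap between those 4 libraries and the other 6, in either direction. Fos ran otherwise, since both its PA+NTP libraries lay below Vehicle. Whether the courses of Per1 and Nr4a1 are linked was not tested. After removal of the GC trend, 3 reset targets stayed called with PA, beside 8.4% of all genes: Fos at -1.20, Egr1 at -0.85 and Nr4a1 at -0.63 on the log2 scale. With LA Egr1 (-0.45, edgeR adjusted p = 0.00061) and Nr4a1 (-0.32, adjusted p = 0.307) were no longer called, beside 3.07%. With NTP the call left was Nr4a1, at 0.77 under PA (beside 5.93%) and 0.59 under LA (beside 5.52%). Egr1 missed only the fold threshold there, at 0.40 under PA (adjusted p = 0.0007) and 0.47 under LA (adjusted p = 0.000191).

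The genes most like a clock gene across the 10 libraries were ranked by Pearson's r of log2 CPM over 11115 genes (11116 for Dbp), as a description. For Dbp these were Ociad2 (r = 0.947), Tenm3 (0.947) and Mcam (0.929), with 18 genes over 0.9. For Arntl they were Ptpmt1 (0.868), Dffb (0.843) and Tm7sf3 (0.836), with 0 genes over 0.9. For Per1, Nr1d1 and Nr1d2, added after the values were seen, 1352, 704 and 1317 genes had r over 0.9, so the course of these 3 genes over the groups was shared with many others. The closest to Per1 was Prrc2a (0.995, GC content 60.6%), to Nr1d1 Lasp1 (0.991, 56.1%) and to Nr1d2 Pde3b (0.996, 44.0%).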

How the data were processed

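Primary hepatocytes of 5 groups were sequenced, 2 libraries each, and grouped by the sample labels. The authors aligned reads with HISAT and Bowtie2 to mm10 (submitters' processing notes) and quantified genes with RSEM. Not given in the sources used here are their versions, the annotation and the strand setting. The deposited expected counts are RSEM estimates per gene without scaling between libraries, and the deposited FPKM values were scaled by the authors for transcript length and library size. Genes under 0.01 FPKM are not listed in a library and were taken as 0. Of 18055 gene IDs, 17998 were matched to RefSeq symbols by ID and 11 by accession.

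The test was run on rounded expected counts by edgeR 4.0.16 under R 4.3.3 (TMM factors 0.977 to 1.04, filterByExpr, quasi-likelihood F test, 5 groups as 1 factor over all 10 libraries, Benjamini-Hochberg adjustment over 14097 genes). A gene was called at an adjusted p under 0.05 and a fold of at least 1.5. An exact permutation test of 2 against 2 libraries cannot go below p = 0.333 and was not used. GC content came from GENCODE M21 transcripts for 98.4% of genes, and its trend was removed by loess (span 0.4). Ratios used log2 CPM with a prior count of 1. Alternatives were DESeq2 1.42.0, library-size scaling, other filters on low values, limma 3.58.1 on log2(FPKM + 1) and log2(FPKM + 0.1), a NOISeq rule at a probability of 0.95, only the groups compared, trends removed on GC content or length, replicate blocks, and each library left out. Named genes were the 10 clock genes and, from fixed lists, genes called in the 4 comparisons of an FFA with Vehicle and of NTP with the FFA (clock genes), the 4 or 3 of largest change (outputs, reset targets), and Npas2, Rora, Nfil3, Tef and Hlf whatever they did. An item of these lists is not reported here, and the counts and medians of its lists were taken without it. Members and lists were chosen with earlier results of these data known. Depth limits Dbp most, and no intervals cover more than the spread between libraries. The scripts were tested on simulated data.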

Additional observations from a re-analysis of the deposited data

How the results depend on the processing

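With the GC trend removed, the clock genes called numbered 2 for PA against Vehicle (Per1, Nr1d1), 1 for LA against Vehicle (Per1), 0 for PA+NTP against PA, 1 for LA+NTP against LA (Per1) and 5 among the groups, in place of 4, 3, 3, 3 and 9. With the trend removed and the replicate block they were 2, 1, 1 and 1. Without a fold threshold they were 8, 7 and 7 for PA, LA and LA+NTP, limma on log2(FPKM + 1) gave 2 and 1 for PA and LA, and the NOISeq rule gave 0 in all these comparisons, where it called at most 5 of all genes. PA+NTP against Vehicle moved from 1 to 0 under DESeq2, library-size scaling, a mean FPKM of at least 1 (which removes Dbp), limma on log2(FPKM + 1), the NOISeq rule and a fit of only the groups compared, and to 2 without a fold threshold. Leaving out each library gave 2 to 4 for PA, 1 to 3 for LA and 0 to 2 for PA+NTP against Vehicle. The calls of LA+NTP against Vehicle, PA against LA and the difference between the NTP effects numbered 0 in every setting run. Removing the length trend moved none of these counts by over 1.5 times. The replicate block alone moved none either: same-numbered libraries correlated from -0.0848 to 0.129, over 0.1 in 2 of 10 pairs, so the numbers were not taken to pair them.

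Signs turned in uncalled values. With the GC trend removed, without and with the block, Clock was -0.18 and -0.18 (PA), -0.16 and -0.16 (LA), 0.14 and 0.14 (PA+NTP against PA) and 0.11 and 0.11 (LA+NTP against LA), Dbp 0.14 and 0.13 (LA) and -0.70 and -0.69 (LA+NTP), Per3 -0.0086 and -0.038 (PA+NTP) and -0.0899 and -0.084 (LA+NTP), and Cry2 -0.13 and -0.13 (PA+NTP). With the length trend removed Dbp was -0.0502 (LA+NTP). Leaving out each library, PA+NTP against PA ranged from -0.073 to 0.10 for Arntl, -0.12 to 0.30 for Per3 and -0.60 to 0.33 for Dbp, and LA+NTP against LA from -0.051 to 0.17 for Per3 and -0.039 to 0.043 for Dbp. The cause of these changes was not tested. Per1 kept its sign in all 4 comparisons under every setting run, as did Nr1d1 and Nr1d2.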
